A study of Rattus norvegicus with 2 samples.

Results

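The actins, cofilins, profilins and thymosins examined here are the 9 rat genes Actb, Actg1, Cfl1, Cfl2, Dstn, Pfn1, Pfn2, Tmsb4x and Tmsb10, taken from a list of names and matched by RefSeq identifier. All 9 were among the 9894 genes listed in either library. The libraries were made from primary cultured neurons of the somatosensory cortex of E16 Sprague-Dawley rats, dissociated and electroporated with a control plasmid or with an RNAi plasmid against PIWIL1, and cultured for 48 h in Neurobasal medium with serum and B27 before RNA extraction. In the study's methods the siRNAs were cloned into a pSuper vector and the control siRNA is a scrambled sequence, and which PIWIL1 siRNA was sequenced is not given in the sources used here. There was 1 library per condition, so no difference below has a replicate check, and no sorting of the electroporated cells is described in the sources used here. The level of PIWIL1 itself was not analysed here.

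Actin cycles between monomers and filaments, and in a young neuron this turnover drives the growth cone, the extension of neurites and the movement of the cell body. The cofilin family cuts filaments and frees monomers, profilins load monomers for addition to growing ends, and the beta-thymosins hold monomers in reserve. Actb and Actg1 encode the 2 cytoplasmic actins, whose proteins are nearly identical.

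Each transcript was read as 21-base tags that begin at a CATG site, so the data for a gene are the copies of its tags. The sites are numbered from the 3′ end of the transcript. The most copied tag of each gene is shown because no other sequence weighs more in the gene's ratio. Capitals mark the last 2 bases, the tag end.
Actb, site 3: catgaagtgtgacgttgacAT
Actg1, site 2: catgtagtgatctgtgcagGG
Cfl1, site 1: catggaagcaggaccagtaAG
Cfl2, site 3: catgatggcaatttctgtaTA
Dstn, site 1: catgacactgaacactgtaGA
Pfn1, site 1: catgggctgggggctggggCT
Pfn2, site 1: catgaccttactacagtaaCC
Tmsb4x, site 1: catgttggtgaaggaaaaaGC
Tmsb10, site 2: catgggggaaatcgccagcTT
These tags held between 35.96% of the copies of Actb and 94.7% of those of Pfn1. In Pfn1 the gene's value was therefore close to that of a single tag. In Tmsb4x the most copied tag held 84.96% of the copies, and the gene's value still departed from that of this tag, as given below.

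The control library held 1947600 copies on genes among 3386865 clean tags, and the RNAi library 1865913 among 3303361. The deposited TPM is the tag count scaled to the clean tags of the library and is not divided by gene length, so levels are compared between libraries and not between genes. The least taken as a signal, 3 copies, corresponds to 0.886 TPM in the control library and 0.908 TPM in the RNAi library, far below every level of the 9 genes. Together the 9 genes took 2.84% of the copies on genes in the control library (95% Wilson interval 2.82% to 2.87%) and 2.57% in the RNAi library (2.55% to 2.59%). All intervals account for counting error alone. Copies made by amplification do not stand for separate molecules, so the intervals can be too narrow even for that error.
All 10 neuron markers were listed, at 4506 TPM in sum in the control library and 3956 TPM in the RNAi library, with 7484 and 5678 copies for Stmn2, 2670 and 3541 for Gap43 (74.4% of them on tags with 8 or more A at the end) and 1538 and 1068 for Tubb3. Over the neuron markers listed in both libraries the median log2 ratio was -0.49, beside -0.085 for all genes listed in both. All 6 fibroblast markers were listed, at 641 TPM in sum in the control library and 590 TPM in the RNAi library. Of the smooth muscle and pericyte markers 5 of 6 were listed, at 371 and 395 TPM in sum. Of the progenitor markers 6 of 7 were listed, at 1009 and 1302 TPM in sum, of which Vim made up 789.5 and 1127 TPM. The other 5 were all lower in the RNAi library, and the median log2 ratio of the list was -0.28. Of the astrocyte markers 4 of 6 were listed, at 126 and 145 TPM, and of the oligodendrocyte markers 6 of 6, at 7.39 and 5.75 TPM. Of the microglia markers 5 of 6 were listed, at 838 and 2212 TPM, and 98% of these copies lay on tags with 8 or more A at the end, nearly all of Cd68. Of the red blood cell markers 5 of 7 were listed, at 36.6 and 56.3 TPM. None of the 5 endothelial markers was listed. Cytoplasmic actins, cofilin and profilin are made by all of these cells, and the part of other cells in the values below was not tested. In such bulk samples fewer cells of a type and less RNA per cell cannot be told apart.

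Of the 9 genes only Actg1 passed both thresholds, and it fell. The thresholds were a false discovery rate (FDR) of at most 0.05 in Fisher's exact test and a size of at least 0.58 for the log2 ratio of TPM. Among all 9894 genes, 5.97% passed as lower and 2.96% as higher in the RNAi library. Among the 864 genes with at least as many copies as Cfl2, the least copied of the 9, the shares were 6.94% and 4.05%. With the FDR alone, 3 of the 9 genes were lower (Actg1, Cfl1 and Tmsb4x) and 3 were higher (Dstn, Pfn1 and Tmsb10), against 9.53% lower and 7.14% higher among all genes and 29.1% and 33% among those 864 genes. With all clean tags as totals, Dstn (FDR 0.107 by Fisher's exact test) no longer passed the FDR and Actb (0.00975) passed it as lower. The share that passed at this depth was therefore near that of other abundant genes. The median log2 ratio of the 9 genes was 0.14, beside -0.085 for the genes listed in both libraries. What is tested is the difference between these libraries, not between the conditions, and variation among cultures is not in it.

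**Figure D1:**
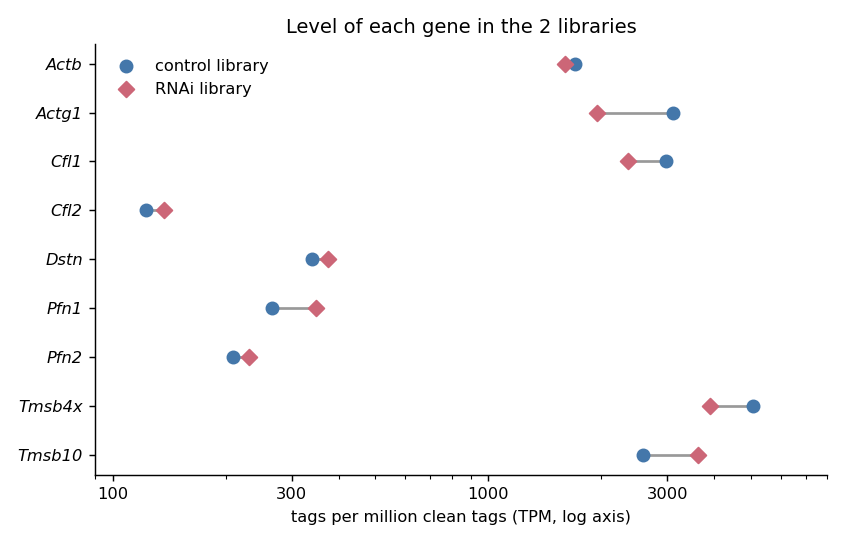
Level of each of the 9 genes in the control library (circles) and the RNAi library (diamonds), in TPM on a log axis. Actg1, Cfl1 and Tmsb4x lie lower in the RNAi library and Tmsb10 higher, while Actb, Cfl2, Dstn and Pfn2 lie close to their control level.

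Actg1, which encodes gamma-actin (listed under NM_001127449), went from 10537 copies in the control library to 6428 in the RNAi library, or from 3111 to 1946 TPM. The RNAi library was the lower one, with 0.625 of the control level, or a log2 ratio of -0.68 (95% exact interval -0.72 to -0.63, Fisher's exact FDR 1.52e-181). Another 589 genes had a log2 ratio within 0.1 of this value, so with 2 libraries the size of the fall does not set Actg1 apart. When cultures were assumed to vary with a biological coefficient of variation of 0.1, its FDR in edgeR's exact test was 0.111.
Actb, which encodes beta-actin (NM_031144), went from 5769 to 5289 copies, or from 1703 to 1601 TPM. These levels were close, with a log2 ratio of -0.09 (95% exact interval -0.14 to -0.04, Fisher's exact FDR 0.0996), and with edgeR's TMM factors the log2 ratio was 0.0052. The interval is scaled to clean tags and the test to copies on genes. With clean tags as totals the FDR of Actb was 0.00975 by Fisher's exact test. The ratio of Actg1 to Actb does not depend on library totals, and it was lower in the RNAi library, at a log2 difference of -0.59 (95% exact interval -0.66 to -0.52). Actg1 held 64.6% of the copies on this pair in the control library and 54.9% in the RNAi library. The ratio of the pair does depend on the tags counted. With copies corrected for the tag end, as set out below, the log2 ratio was -0.28 for Actg1 and -0.10 for Actb.

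The fall of Actg1 was uneven along its transcript. Its 15 tags with at least 20 copies differed among themselves beyond counting error (chi-square test of tags by library, FDR 1.16e-42 over all genes with at least 2 such tags), as did those of 19.9% of all 3985 genes tested and of 48.4% of the 771 genes among them with at least as many copies as Cfl2. The 3 most copied tags carried most of the fall. The tag at site 2 went from 4554 to 2546 copies (log2 ratio -0.80), that at site 5 from 1845 to 808 (-1.16) and that at site 1 from 1699 to 1035 (-0.68). The tag at site 16 went from 851 to 784 copies, a log2 ratio of -0.08 (95% exact interval -0.22 to 0.06), and the tag at site 7 from 177 to 231 copies (0.42). The sequences of sites 5, 1 and 2 are shown with their ends in capitals, since these are the tags in which the fall lies.
Actg1, site 5: catgctagcctcatgaaacTG
Actg1, site 1: catgggttgttacttgcctTG
Actg1, site 2: catgtagtgatctgtgcagGG
Among all tags with at least 20 copies, the ratio also varied with the tag end. The median log2 ratio was -0.67 over 866 tags ending in TG, -0.55 over 689 tags ending in GG and 0.15 over 1023 tags ending in GC.
All 10 abundant tags of Actg1 that end in G or T had a log2 ratio below 0, from -1.16 to -0.04, and together went from 9148 to 5067 copies (log2 ratio -0.82). Of these 10, the tag with 17 and 10 copies at site 3 differs only in its last base from the one with 102 and 64. The 5 of Actg1 that end in A or C ran from -0.08 to 0.42 and together went from 1328 to 1312 copies, a log2 ratio of 0.02 (95% exact interval -0.09 to 0.13). In Actb the 7 abundant tags ending in A or C together had a log2 ratio of -0.004 (95% exact interval -0.07 to 0.06). The 2 of Actb ending in G or T together had one of -0.24. Over all genes, 69.7% of the 7193 abundant tags ending in G or T and 44.5% of the 8632 ending in A or C (runs of 8 or more A left out) had a log2 ratio below 0. This division by the last base was made after the values were seen and is a description. With copies corrected for the median of each tag end, Actg1 had a log2 ratio of -0.28 and no longer passed the ratio threshold.

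Actb and Actg1 can be compared at 4 matching sites, where tags of the 2 genes differ at only 2 or 3 of 21 bases. Capitals mark the bases that differ between the paired tags.
Actb, site 3: catgaagtgtgaCgtTgacat
Actg1, site 8: catgaagtgtgaTgtGgacat
Actb, site 9: catgtgcaaGgcCggcttCgc
Actg1, site 16: catgtgcaaAgcTggcttTgc
Actb, site 7: catgtacgtAgccatCcaggc
Actg1, site 12: catgtacgtGgccatTcaggc
Actb, site 5: catgaagatcctgacCgaGCg
Actg1, site 10: catgaagatcctgacTgaAAg
At the first pair the Actb tag went from 2159 to 1818 copies (log2 ratio -0.21, 95% exact interval -0.30 to -0.12) and the Actg1 tag from 433 to 276 (-0.61, -0.84 to -0.39), so Actg1 was the lower one there. At the second pair the Actb tag went from 1023 to 1019 copies (0.03) and the Actg1 tag from 851 to 784 (-0.08), with intervals that overlap. The pair of sites 7 and 12 stood at 124 and 122 copies for Actb and 56 and 55 for Actg1.
The fourth pair was lower in both genes. The Actb tag went from 72 to 27 copies (log2 ratio -1.38, 95% exact interval -2.07 to -0.72) and passed both thresholds, and the Actg1 tag went from 165 to 90 (-0.84, -1.23 to -0.46) and passed them too. Of all 16021 tags with at least 20 copies, 5.26% passed as lower and 3.07% as higher. Most of Actb, by contrast, was read at the 4 sites whose tags went from 2159 to 1818, from 1080 to 986, from 1023 to 1019 and from 973 to 995 copies. The tags of Actb at sites 3, 6, 1 and 5 each lie 1 base from a tag listed under Actg2 or Acta2, which had at most 37 copies in a library, and the part of read errors between such tags was not tested.

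In RefSeq's sequence of the Actg1 promoter (GRCr8, chr10:106120902-106121201, minus strand, 250 bases before the start and 50 after) a CArG box lies 90 to 81 bases before the start. This motif is read by the serum response factor, which senses the pool of actin monomers through its coactivators and drives actin genes. It is shown because Actg1 is the gene of the 9 that passed both thresholds. Capitals mark the motif, which reads as a CArG box on both strands.
Actg1 promoter: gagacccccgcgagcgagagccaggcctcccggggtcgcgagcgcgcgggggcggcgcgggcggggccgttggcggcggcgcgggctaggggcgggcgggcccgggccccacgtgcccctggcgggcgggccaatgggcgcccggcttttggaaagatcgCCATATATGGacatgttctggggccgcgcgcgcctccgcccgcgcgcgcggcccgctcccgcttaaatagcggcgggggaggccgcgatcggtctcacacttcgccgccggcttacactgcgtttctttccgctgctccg
The motif was found in 1 of the 8 members with a promoter in that table, which has no entry for Actb, and in 1.64% of all 33469 promoters. Among genes listed in both libraries, the 73 with a CArG box had a median log2 ratio of -0.03, beside -0.085 for all. Of these 73 genes 5 passed as lower and 2 as higher, shares near the 5.97% and 2.96% of all 9894 genes. The match is one of letters and is no evidence of binding.

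Cfl1, the main cofilin of non-muscle cells (NM_017147), went from 10053 to 7800 copies, or from 2968 to 2361 TPM. It was lower in the RNAi library at a log2 ratio of -0.33 (95% exact interval -0.37 to -0.29, Fisher's exact FDR 1.77e-42), which is below the ratio threshold in size. The difference lay in its most copied tag. At site 1 the copies went from 7281 to 4928 (log2 ratio -0.53, 95% exact interval -0.58 to -0.47), while at site 2 they went from 2100 to 2313 (0.18, 0.09 to 0.26) and at site 3 from 327 to 338.
The tags of sites 1 and 2 are shown because they moved in opposite directions.
Cfl1, site 1: catggaagcaggaccagtaAG
Cfl1, site 2: catgctgccaacttctaacCA
Tags that end in AG had a median log2 ratio of 0.11 and those that end in CA one of 0.16, so the median of its own end was above 0 for both tags. With the tag of site 1 left out Cfl1 had a log2 ratio of 0.087, and the direction of Cfl1 therefore rests on 1 tag. At site 4 the copies went from 226 to 120 (log2 ratio -0.88), on a tag that ends in GT, an end with a median of -0.67.
Cfl2, known as the muscle cofilin, was read at low depth, with 416 copies in the control library and 452 in the RNAi library (NM_001108982, 122.8 and 136.8 TPM). The levels did not differ detectably at this depth (log2 ratio 0.16, 95% exact interval -0.04 to 0.35, Fisher's exact FDR 0.226). Its 6 tags with at least 20 copies gave no sign of unequal ratios (chi-square test, FDR 0.901), with log2 ratios from -0.04 to 0.43.
Dstn encodes destrin, or actin depolymerizing factor (NM_001033666), and went from 1153 to 1235 copies, or from 340 to 374 TPM. It was slightly higher in the RNAi library, at a log2 ratio of 0.14 (95% exact interval 0.02 to 0.25, Fisher's exact FDR 0.0413). At site 1, the most copied tag went from 548 to 617 copies, and the tag at site 4 went from 95 to 139 copies (log2 ratio 0.59, FDR 0.045 by Fisher's exact test) and passed both thresholds. Of its 8 tags with at least 20 copies, 5 had a log2 ratio below 0, and the 8 differed beyond counting error (chi-square test, FDR 0.0155). Without its most copied tag Dstn had a log2 ratio of 0.067 (FDR 0.274 by Fisher's exact test).
Relative to Cfl1, both other members of the family were higher in the RNAi library, Cfl2 by a log2 value of 0.49 (95% exact interval 0.29 to 0.69) and Dstn by 0.47 (0.34 to 0.59). The ratio of Dstn to Cfl2 stood at a log2 difference of -0.02 (-0.25 to 0.21). These values rest on the Cfl1 tag of site 1 in the same way.

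**Figure D2:**
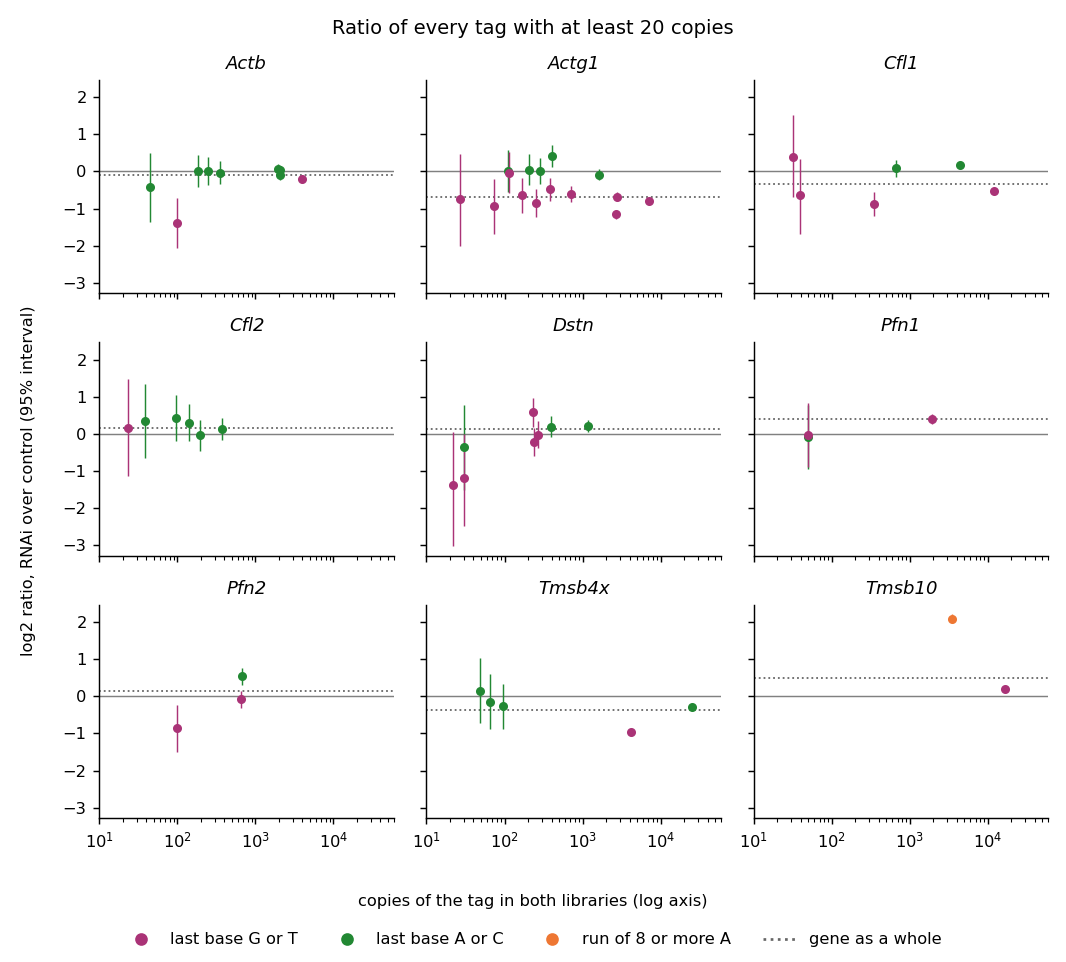
Log2 ratio of every tag with at least 20 copies against its copies in both libraries on a log axis, 1 panel per gene, with 95% exact intervals and colours for the last base of the tag. In Actg1 the 3 most copied tags, all ending in G, lie between -1.16 and -0.68, in Cfl1 the most copied tag lies below 0 and the next above it, and in Tmsb10 the tag with the A run stands at 2.09.

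Pfn1, the widely expressed profilin (NM_022511), went from 900 to 1151 copies, or from 266 to 348 TPM. It was higher in the RNAi library, by 1.31-fold or a log2 ratio of 0.39 (95% exact interval 0.26 to 0.52, Fisher's exact FDR 2.66e-09), which is below the ratio threshold. Nearly all copies were on the tag of site 1, which went from 849 to 1093, and the tags of sites 3 and 2 stood at 26 and 24 and at 25 and 24 copies. The tag of site 1 ends in CT, an end with a median log2 ratio of -0.24, and with copies corrected for the tag end the log2 ratio of Pfn1 was 0.578, just under the threshold of 0.58.
Pfn2, the profilin that is enriched in the brain (NM_030873), went from 708 to 764 copies, or from 209 to 231 TPM. These levels gave a log2 ratio of 0.15 (95% exact interval -0.004 to 0.30, Fisher's exact FDR 0.110). Its tags did not agree among themselves (chi-square test, FDR 1.56e-05). The tags of its sites 1 and 2 are shown because they disagreed at similar depth.
Pfn2, site 1: catgaccttactacagtaaCC
Pfn2, site 2: catgaggcgtttggtttgcTT
At site 1 the copies went from 282 to 400 (log2 ratio 0.54, 95% exact interval 0.32 to 0.77), at site 2 from 341 to 314 (-0.08, -0.31 to 0.14) and at site 5 from 65 to 35 (-0.86, -1.49 to -0.24). Without its most copied tag the log2 ratio of Pfn2 was -0.19, so the sign of the gene's value depends on site 1. Relative to Pfn1, Pfn2 was lower in the RNAi library, at a log2 difference of -0.24 (95% exact interval -0.44 to -0.05).

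The beta-thymosins moved in opposite directions. Tmsb4x, the gene of thymosin beta 4 (NM_031136), went from 17146 to 12879 copies, or from 5063 to 3899 TPM, and Tmsb10, the gene of thymosin beta 10 (NM_021261), from 8725 to 11964 copies, or from 2576 to 3622 TPM. The log2 ratio was -0.38 for Tmsb4x (95% exact interval -0.41 to -0.34, Fisher's exact FDR 2.37e-95). It was 0.49 for Tmsb10 (0.45 to 0.53, Fisher's exact FDR 1.08e-142), and neither reached the ratio threshold. With all tags counted, their copies summed to 1.33% of the copies on genes in each library. Within this sum the share of Tmsb10 went from 33.7% to 48.2%, and the ratio of Tmsb10 to Tmsb4x was higher in the RNAi library by a log2 value of 0.87 (95% exact interval 0.82 to 0.92).
Tmsb10 was read from 2 sites whose tags gave very different ratios (chi-square test, FDR 7.17e-197). The second tag of Tmsb10 is shown because it carried most of the difference, with its run of A in capitals.
Tmsb10, site 1: catggttAAAAAAAAAAAAAA
This tag went from 685 to 2845 copies, a log2 ratio of 2.09 (95% exact interval 1.97 to 2.21), while the tag of site 2 went from 7922 to 8924 copies (0.21, 0.16 to 0.25). Over all genes, 38 tags ending in a run of 13 or more A had a median log2 ratio of 1.91 (quartiles 1.55 and 2.09). The A-run tag of Tmsb10 thus had about the ratio of its class, and lies 1 base from a tag listed under Vps52 that went from 489 to 2404 copies. Without the tags that end in 8 or more A, Tmsb10 had 8025 copies in the control library and 9085 in the RNAi library, a log2 ratio of 0.22 (FDR 5.18e-31 by Fisher's exact test). The ratio of Tmsb10 to Tmsb4x was then higher by a log2 value of 0.59 (95% exact interval 0.54 to 0.65). The share of Tmsb10 in the pair then went from 31.9% to 41.4%. Tmsb4x still had 17146 and 12879 copies, so the equal sum of the pair depends on the A-run tags.
Tmsb4x was also read from 2 sites. The tag of site 1 went from 14183 to 11326 copies (log2 ratio -0.29, 95% exact interval -0.32 to -0.25) and that of site 2 from 2764 to 1381 (-0.97, -1.06 to -0.87), so both were lower. The 5 tags of Tmsb4x with at least 20 copies differed beyond counting error (chi-square test, FDR 1.75e-35). The gene's log2 ratio of -0.38 lay outside the interval of the site 1 tag. The tag of site 1 ends in GC, an end with a median log2 ratio of 0.15, and with copies corrected for the tag end the log2 ratio of Tmsb4x was -0.52.
The other 3 tags of Tmsb4x with at least 20 copies differ from the tag of site 1 at base 9, counted from the C of CATG. They are shown with base 9 in capitals, below the tag of site 1.
Tmsb4x, site 1: catgttggTgaaggaaaaagc
Tmsb4x, variant with G: catgttggGgaaggaaaaagc
Tmsb4x, variant with A: catgttggAgaaggaaaaagc
Tmsb4x, variant with C: catgttggCgaaggaaaaagc
The variant with G had 53 copies in the control library and 43 in the RNAi library, that with A 35 and 31, and that with C 23 and 25. Such variants were small throughout. Of the 261 tags listed under the 9 genes, 206 differed at 1 base from a more copied tag of the same gene, and these held 1.10% of the copies. They say little of their own about the genes. Nearly all copies (99.2%) lay on the 57 tags with at least 20. These 57 include some variants, among them those of Tmsb4x shown above, and 51 of the 57 are not variants of this kind.

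Over these 57 tags the median log2 ratio was -0.04, beside -0.08 for all tags with at least 20 copies. As lower 8 of them passed both thresholds, 5 of Actg1 and 1 each of Actb, Cfl1 and Tmsb4x, beside 5.26% of all such tags. As higher 2 of them passed, 1 each of Dstn and Tmsb10, beside 3.07%. These shares over all tags were not matched for depth. Of the tags ending in G or T, 23 of 28 had a log2 ratio below 0, and of those ending in A or C, 10 of 28, beside 69.7% and 44.5% over all genes. The part of the tag end in these values was not tested for the 9 genes alone.

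**Figure D3:**
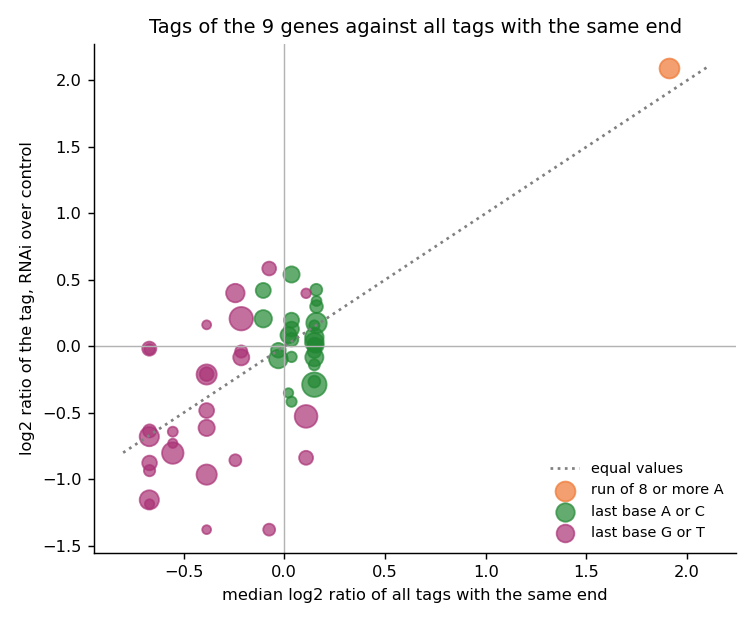
Log2 ratio of each of the 57 tags of the 9 genes against the median log2 ratio of all tags with the same end, with the area of a point growing with its copies and colours for the last base. The A-run tag of Tmsb10 lies at the upper right near the line of equal values, and the tags of ends with a low median lie mostly below 0.

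With copies corrected for the median of each tag end, none of the 9 genes passed both thresholds. The log2 ratio was then -0.10 for Actb, -0.28 for Actg1, -0.50 for Cfl1, 0.01 for Cfl2, 0.26 for Dstn, 0.17 for Pfn2, -0.52 for Tmsb4x and 0.30 for Tmsb10. Every gene kept the direction it had as deposited. The correction takes out only a median and leaves the spread of tags within a class, so its FDR is not quoted here.

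**Figure D4:**
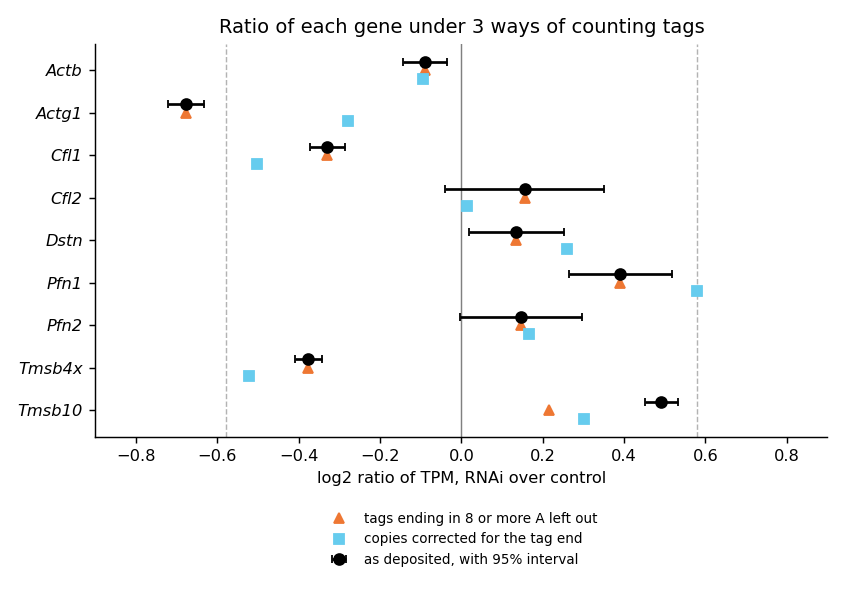
Log2 ratio of each of the 9 genes as deposited with its 95% exact interval (circles), without tags that end in 8 or more A (triangles) and with copies corrected for the tag end (squares), and dashed lines at the ratio threshold of 0.58. Actg1 lies past the threshold as deposited and inside it when corrected, and Tmsb10 moves from 0.49 to 0.22 without the A-run tags.

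Other genes of actin turnover were taken from lists drawn up from textbook roles, with the Arp2/3 complex not included. Of 97 symbols 63 were found, on 64 listed genes. As lower 2 of them passed both thresholds and as higher 1, beside 5.97% and 2.96% of all genes, and their median log2 ratio was -0.05, beside -0.085. With the FDR alone 7 were lower and 9 higher, beside 9.53% and 7.14% of all genes.
The filament-binding and bundling proteins made the largest list, with 18 genes, of which 1 passed both thresholds as lower and none as higher. With the FDR alone 4 were lower and 2 higher. Fscn1, which encodes fascin, the bundling protein of growth cone filopodia, fell from 2398 to 1481 copies, a log2 ratio of -0.66 (95% exact interval -0.75 to -0.57, Fisher's exact FDR 5.08e-39). With edgeR's TMM factors its log2 ratio was -0.56, and with copies corrected for the tag end -0.16, both short of the threshold, and without its most copied tag -0.02. Marcksl1, a membrane-bound actin regulator, went from 3451 to 3980 copies (log2 ratio 0.24). Dbn1, the gene of the neuronal filament-binding protein drebrin, went from 947 to 1296 (0.49). After the tag-end correction Marcksl1 stood at -0.04, so the sign of its value depends on that correction, while Dbn1 stood at 0.39. Leaving out the most copied tag gave 0.68 for Marcksl1 and 0.11 for Dbn1, and neither then passed the FDR of 0.05 by Fisher's exact test.
Among 8 nucleation and elongation factors 1 passed both thresholds as higher. Wasl encodes N-WASP, which switches on branched nucleation, and rose from 114 to 204 copies, a log2 ratio of 0.88 (95% exact interval 0.54 to 1.22, Fisher's exact FDR 1.36e-06). It passed both thresholds with the correction for the tag end as well (log2 ratio 0.65) and with edgeR's exact test at an assumed coefficient of 0.1 (FDR 0.0180). It did not pass at a coefficient of 0.2 or 0.4 or at a log2 threshold of 1, and without its most copied tag its log2 ratio was -0.08, so its rise rests on 1 tag. The more copied Evl, of the Ena/VASP family of elongation factors, stood at 857 and 847 copies, and Wasf1, a WAVE subunit, went from 826 to 975 (0.28). Daam1, a formin, had 230 and 274 copies (0.29).
Of 8 genes for kinases and phosphatases upstream of cofilin, 1 passed both thresholds as lower. This was Pak2, with 15 copies in the control library and 3 in the RNAi library, a log2 ratio of -2.29 (95% exact interval -4.72 to -0.46, Fisher's exact FDR 0.0478). Its FDR was 0.0602 with the correction for the tag end, 0.0502 without the tags of 8 or more A and 0.225 in edgeR's exact test at an assumed coefficient of 0.1, so it passed in none of these. The cofilin kinases Limk1 and Limk2 had 292 and 354 copies (0.31) and 233 and 182 copies (-0.32), and the cofilin phosphatase Pdxp had 169 and 119 (-0.47, FDR 0.0625 by Fisher's exact test).
Among 10 genes of monomer binding and disassembly none passed both thresholds. Cap1, the cyclase-associated protein that recycles monomers from cofilin, came nearest, from 510 to 741 copies at a log2 ratio of 0.575 (FDR 1.26e-11 by Fisher's exact test). Wdr1, the partner of cofilin in disassembly, went from 1262 to 960 copies (-0.36), and Twf1, a monomer-binding twinfilin, had 482 and 446 (-0.08). The most copied tag of Wdr1 alone gave a log2 ratio of 0.02. Without that tag Wdr1 stood at -0.60 and passed both thresholds as lower (FDR 1.85e-08 by Fisher's exact test). With edgeR's TMM factors Cap1 passed the threshold at 0.67. With copies corrected for the tag end (0.38) or without its most copied tag (0.32) Cap1 did not pass. In edgeR's exact test at an assumed coefficient of 0.1 its FDR was 0.0743.
None of the 7 capping and severing genes passed. Capzb and Capza2, subunits of the protein that caps filament ends, went from 578 to 651 copies (0.21) and from 510 to 353 (-0.49), and Add1, of the capping adducins, from 549 to 599 (0.16).
None of the 8 listed genes around the serum response factor passed either. The factor itself, Srf, had 194 and 229 copies (0.28), and Tagln and Myl9, known targets and smooth muscle markers, 565 and 661 (0.26) and 375 and 381 (0.06).
The other actins were rare, with Acta2 at 289 and 244 copies (-0.21), Actg2 at 17 and 7 and Acta1 at 4 and 8, and Actc1 was not analysed here. Among other profilins and beta-thymosins, Tmsb15b2 went from 2015 to 2221 copies (log2 ratio 0.18) and Pfn3 had 2 in each library.

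**Figure D5:**
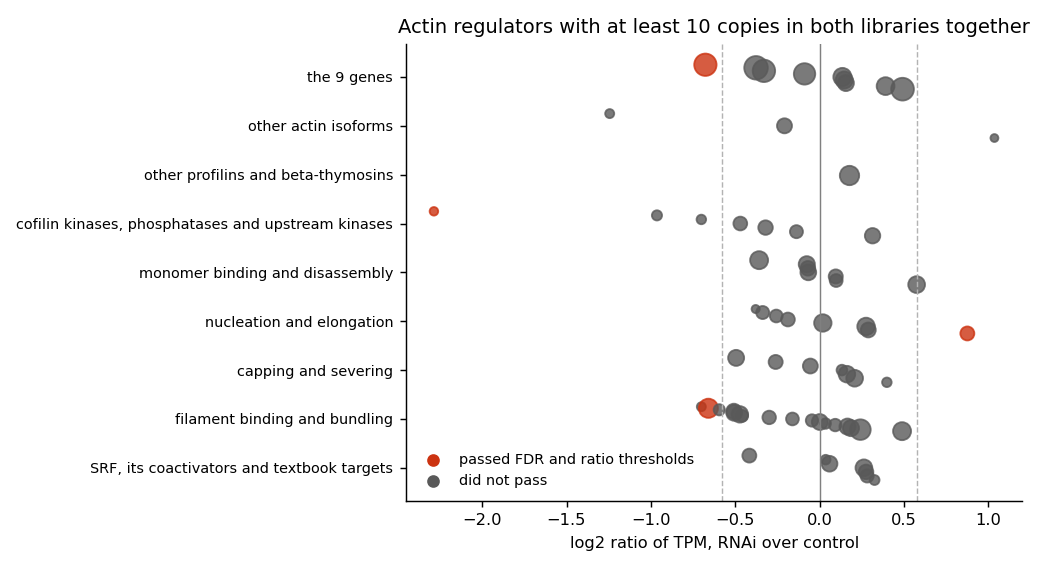
Log2 ratio of TPM for the 9 genes and for the listed actin regulators with 10 or more copies over both libraries, 1 row per list, with larger points for more copies and dashed lines at 0.58 in each direction. Red points passed both thresholds, which were Actg1, Pak2 and Fscn1 on the lower side and Wasl on the higher side.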

How the data were processed

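The mRNA of cultured rat cortical neurons was profiled by digital gene expression, with 1 library electroporated with control plasmid and 1 with PIWIL1 RNAi plasmid. The authors deposited a count per gene, which is the sum of the copies of its 21-base tags, and a TPM, which the authors scaled to all clean tags without gene length. The count and TPM of each tag were deposited too. The submitters' processing notes name rn4, with no role given; the program that matched tags to genes is not given in the sources used here. No listed tag had fewer than 2 copies and none stood under more than 1 gene. Symbols came from RefSeq accessions (GRCr8 table), which matched 9337 of 9894 genes (94.4%), and promoter sequences from RefSeq on GRCr8.

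Fisher's exact test, two-sided, compared each gene or tag with all other copies on genes (1947600 and 1865913), with Benjamini-Hochberg adjustment over all genes or all tags (FDR). Thresholds were an FDR of 0.05 and an absolute log2 ratio of 0.58, after the study. Intervals are exact at 95%. The log2 ratios of genes and tags and their intervals were scaled to all clean tags, unlike the test, so an interval and an FDR can differ. Agreement of the tags of a gene was tested by chi-square on tags with at least 20 copies. For the tag-end correction, classes were the last 2 bases, or the run length for 3 or more A (13 or more as 1 class), and medians from one part of the genes were taken out of the other. The 9 genes, the lists and the tests were chosen with earlier results of these data known. Named are all 9 genes, the regulators that passed and the 3 most copied of each list, and of the marker lists at most the 3 most copied; Vps52 was added after its values were seen. Alternatives were edgeR's TMM factors (1.02 and 0.976), size factors of DESeq2 (1.04 and 0.959), assumed coefficients of variation in edgeR's exact test, other sets of tags, filters, thresholds and the Audic-Claverie test. The gene test, run on simulated libraries of 9816 genes with counting error only, called 199 of 200 abundant genes changed 2-fold and 5 unchanged genes; it says nothing of variation between cultures or of tag ends. The tools were SciPy 1.17.1 in Python 3.11.15, edgeR 4.0.16 in R 4.3.3, and DESeq2 1.42.0.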

Additional observations from a re-analysis of the deposited data

How the results depend on the processing

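The 9 genes were followed through 17 alternatives. Of 153 log2 ratios so obtained, 134 kept their direction and their side of the thresholds, 5 no longer passed (all of Actg1), 8 newly passed and 6 changed sign. Several alternatives change only the test, its totals, a filter or a threshold, and in those the log2 ratio of a gene could not move. Since only Actg1 passed as deposited, only Actg1 could cease to pass. The count of 134 is therefore no measure of robustness. Actb had a log2 ratio of 0.0052 with edgeR's TMM factors, alone or in its exact test with any assumed biological coefficient of variation (BCV). With the most copied tag left out Cfl1 had 0.087 and Pfn2 -0.19.

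Of the 9 genes, 0 passed as lower with an assumed BCV of 0.1, 0.2 or 0.4, with the tag-end correction or with a log2 threshold of 1, and 2 with the most copied tag left out (Actg1 and Tmsb4x). As higher 1 passed with TMM factors or without the most copied tag (Tmsb10). With the FDR alone, chosen after seeing the data, 3 were lower and 3 higher.

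Of the actin regulators, 1 passed as lower with TMM or DESeq2 factors, without A-run tags, with the tag-end correction, with a log2 threshold of 1 or with an FDR of 0.001, 0 at any assumed BCV and 7 with the FDR alone. The 1 was Pak2 with TMM or DESeq2 factors and at a log2 threshold of 1, Fscn1 without A-run tags and at an FDR of 0.001, and with the tag-end correction Actn4 (log2 ratio -0.60), which did not pass as deposited. Without the most copied tag 2 passed as lower, among them Wdr1 (log2 ratio -0.60), and neither Fscn1 nor Pak2 did. As higher 3 passed with TMM factors or the most copied tag only, 2 with DESeq2 factors or the tag-end correction, 0 at a BCV of 0.2 or 0.4, without the most copied tag or at a log2 threshold of 1, and 9 with the FDR alone.

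Over all genes, the lower and higher calls were 122 and 135 at a BCV of 0.1, 1 and 17 at 0.2 and 0 and 0 at 0.4. They were 379 and 191 with the tag-end correction, 250 and 128 without the most copied tag, 262 and 146 at a log2 threshold of 1, 257 and 163 at an FDR of 0.001, and 943 and 706 with the FDR alone. The cause of these differences was not tested beyond what each setting changes. No paired analysis was possible because each condition has 1 library, and for the same reason no replicate could be left out. Depth limits the values of Cfl2 and Pak2.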
